A study of Mus musculus with 24 samples.

Results

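The genes described here encode the subunits of the 26S proteasome, the barrel-shaped protease that degrades ubiquitin-tagged proteins in the cytosol and nucleus. They were taken by name: every gene whose annotated single symbol is Psma, Psmb, Psmc or Psmd followed by a digit, with the inducible subunits Psmb8 and Psmb9 left out and used only for comparison. This gave 36 of the 12393 genes on the array, of which 16 belong to the core particle and 20 were counted with the regulatory particle. Psmd5, Psmd9 and Psmd10 are among these 20 and called subunit genes here. They encode chaperones of base assembly, which are not part of the finished particle. A gene's value is that of its brightest probe set (a group of short oligonucleotides against 1 transcript), the one with the highest mean over all arrays. Of the 36 genes, 35 passed the filter on low signal, which kept the top 60 percent of all probe sets, and were tested among 8280 genes. The exception was Psma8, the alpha subunit of testis, with signals of 8.3 to 74 (median 32.6) against 168.8 at the filter. The tested gene nearest to the filter was Psmd10, with signals of 156.8 to 280.2 and a median of 230.

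Lungs of untreated male mice aged 8 weeks from the Jackson Lab were measured on 24 Affymetrix Mouse 430A arrays, 2 for each of 12 strains. The strains were the inbred progenitors B6 and C3, their F1 hybrid, and the recombinant inbred (RI) strains BXH2, BXH4, BXH6, BXH7, BXH8, BXH9, BXH10, BXH14 and BXH19, which descend from the same cross and are fixed at most loci for 1 progenitor's allele. The labels give each sample as 1 tissue and leave unsaid whether a strain's arrays represent different animals. The p-values therefore rest on the spread between arrays, part of which may be technical. The arrays were of like scale and quality: their medians ran from 239 to 269.6, correlations over genes were 0.949 to 0.975 within strains and 0.909 to 0.969 between them, and the ratio of 3' to 5' signal was 0.8 to 1.13 for Gapdh and 1.07 to 1.55 for Actb. The 7 lung epithelium markers, among them the surfactant genes Sftpa1 and Sftpc, were at 2448 or above on every array.

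The core particle is a stack of rings: outer rings of alpha subunits (Psma genes), which gate the entrance, enclose inner rings of beta subunits (Psmb genes), some of which carry the protease sites. The regulatory particle caps it with a base, whose ATPases (Psmc genes) unfold the substrate, and a lid, which removes ubiquitin. Cells make the subunits in fixed proportions, and when proteasome activity falls short the transcription factor encoded by Nfe2l1 raises their transcription together through antioxidant response elements. Interferon and immune cells bring in alternative catalytic subunits, Psmb8, Psmb9 and Psmb10, which take the places of Psmb5, Psmb6 and Psmb7 and change the peptides made for presentation on class I molecules.

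At their brightest probe sets, subunit genes differed little between strains. On the log2(signal + 16) scale used throughout, the distance from the highest to the lowest of the 12 strain means had a median of 0.34 over the 35 tested genes, with extremes of 0.20 for Psmd5, a chaperone of base assembly, and 0.90 for Psmb10. Over all 8280 genes the median distance was 0.54. The distance was under 0.5 for 30 of 35 subunit genes, or 85.7 percent, against 43 percent of all genes, and it was over 1 for 0 of them against 10.3 percent. The spread between the arrays of a strain was also smaller: the within-strain SD had a median of 0.14 for the subunit genes and 0.185 for all genes. These are descriptions of a list chosen by name, with no test of the list. The subunit genes were not compared with genes of like signal. The values also depend on the choice of probe set. Among the 17 further probe sets above the filter, those of Psmb4 (1.045), Psmc4 (1.21) and Psmd6 (3.64) spanned over 1, and the rest did not.

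One gene passed the test across strains. In limma's moderated F test over 12 strains with Benjamini-Hochberg adjustment, 10.5 percent of all genes had an adjusted p below 0.05. Among the subunit genes it was 1 of 35: Psmb5, which encodes the constitutive chymotrypsin-like site (adjusted p = 0.037). Over the 9 RI strains alone 9.32 percent of all genes and 0 of 35 subunit genes passed, with 6 subunit genes at an unadjusted p below 0.05 against 24.9 percent of all genes. At an unadjusted p below 0.05 over the 12 strains there were 4 of 15 core genes, 0 of 20 regulatory genes and 25.6 percent of all genes. The call for Psmb5 was not stable to the loss of single arrays. It was lost when array 1 of BXH6, BXH7, BXH9, BXH19 or F1 or array 2 of B6, C3, F1, BXH4, BXH7, BXH14 or BXH19 was left out, with an adjusted p of 0.051 to 0.125, the highest being without array 2 of BXH4.

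The core particle genes had the wider distances. The median was 0.40 over 15 core genes and 0.32 over 20 regulatory genes, a difference of 0.08. Computed from replicate 1 arrays alone this difference was 0.12, and from replicate 2 arrays alone -0.01, so it did not exceed the spread between replicates. Within the core, the 7 tested alpha genes had a median of 0.40 and the 8 beta genes 0.44. Within the regulatory particle, the 6 base ATPases had 0.34, the 3 other base subunits 0.28, the 8 lid subunits 0.32 and the 3 assembly chaperones 0.33. Without Psmb10, which is inducible, the median of the other 14 core genes was 0.39.

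**Figure D1:**
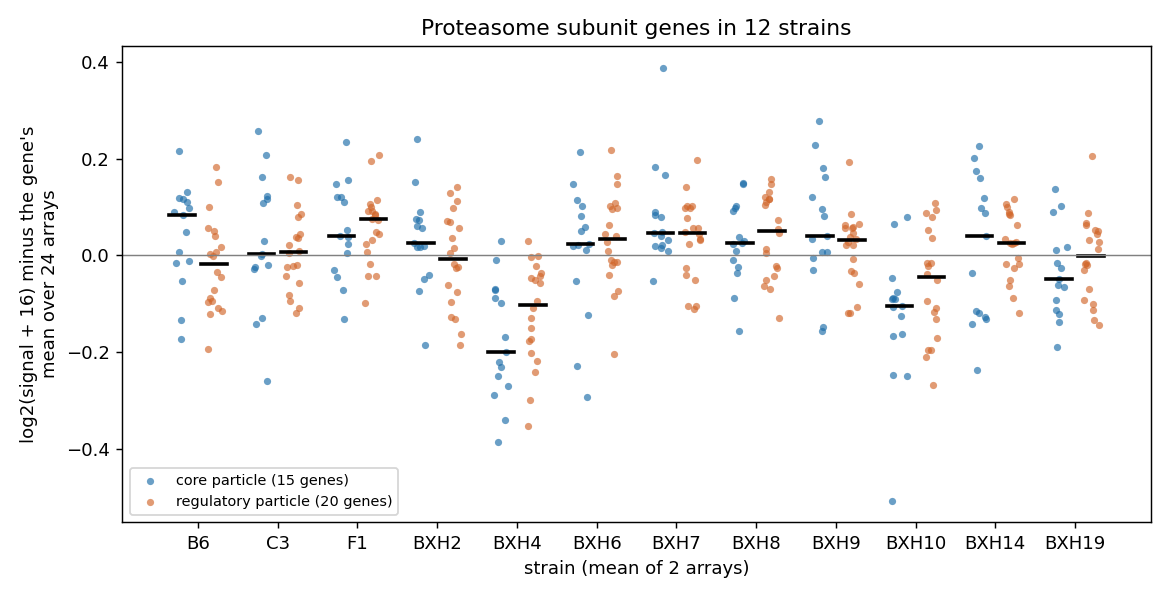
Each point is 1 tested subunit gene in 1 strain, as the mean over 2 arrays of log2(signal + 16) minus that gene's mean over 24 arrays; blue points are 15 core genes, orange points 20 regulatory genes and black bars the medians. Most points lie within 0.3 of their gene's mean, and the medians of BXH4 (-0.20 core, -0.10 regulatory) and BXH10 (-0.11 and -0.05) lie below those of the other strains.

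Levels of different probe sets cannot be ranked as amounts of RNA, so the signals below are given per gene and compared only across arrays. The brightest probe sets were those of Psmb7, the constitutive trypsin-like site, with signals of 2507.8 to 3988 over the 24 arrays (median 3371.1), the lid subunit Psmd11 with 2334.6 to 3384.9 (median 2877.7) and the alpha subunit Psma3 with 2166.9 to 2903.6 (median 2500.4). The dimmest tested, beside Psmd10, were the base chaperone Psmd9 with 264.7 to 421.1 (median 341.1) and the lid subunit Psmd7 with 322.8 to 587.5 (median 424.2). None of these genes passed the test across strains, and their strain distances were 0.24 to 0.45. Psmd4, the ubiquitin receptor of the base, ran from 1139.9 to 1581.5 and Psmd14, the lid's deubiquitinase, from 1275.3 to 1731.1, with distances of 0.35 and 0.33.

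The progenitors were compared to ask which genes differ between the parental genomes, and 1.67 percent of all genes passed at an adjusted p below 0.05. No subunit gene did, and 1 of 35 was lower at an unadjusted p below 0.05, against 4.9 percent of all genes. The differences of C3 minus B6 ran from -0.37 to 0.30, with 18 of 35 below 0 and a median of -0.01. At the brightest probe sets, the 95% confidence interval lay within -1 and 1 for all 35 genes and within -0.5 and 0.5 for 24. A difference of 2-fold in either direction lies outside the interval of each of these probe sets. A further probe set of Psmd6, described below, gave -2.45. Among the brightest probe sets, the lowest adjusted p belonged to Psma7, an alpha subunit. Its signals were 1240.8 and 1100.5 on the B6 arrays and 870.1 and 932.3 on the C3 arrays. At -0.37 (SE 0.13, limma's adjusted p = 0.27) Psma7 did not pass. Its further probe set had 1180 and 1028.4 on the B6 arrays and 953.5 and 1080.5 on the C3 arrays. There the difference was -0.12 (SE 0.17, limma's adjusted p = 0.97 with every probe set tested).

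The F1 hybrid was compared with the mean of its parents on the log2 scale, where 0.0242 percent of all genes and 0 of 35 subunit genes passed. At an unadjusted p below 0.05 there were 0 of 35, against 5.12 percent of all genes lower and 3.04 percent higher. Differences ran from -0.24 to 0.26 with a median of 0.05, and 25 of 35 lay above 0. The interval lay within -0.5 and 0.5 for 32 of the 35 genes. Over all genes 55 percent lay below 0, with a median of -0.02.

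Each RI strain was compared with the mean of the other 8. In 8 of the 9 strains 0 of 35 subunit genes passed. The share of all genes that passed was 1.17 percent in BXH2, 1.94 percent in BXH6, 1.29 percent in BXH7, 1.39 percent in BXH8, 2.08 percent in BXH9, 1.47 percent in BXH10, 1.23 percent in BXH14 and 1.22 percent in BXH19. The exception was BXH4, where 7.63 percent of all genes passed, 4.12 percent as lower. Psmb5 passed there, as the only subunit gene.

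Psmb5 was lowest in BXH4. The BXH4 signals were 1373.5 and 1140.1. The B6 arrays gave 1702.7 and 1864.5, the C3 arrays 1825.8 and 1971.9, and the F1 arrays 1946.7 and 1919.3. In the other RI strains they were 1681.6 and 1636.8 in BXH2, 1867.2 and 1688.6 in BXH6, 1676.6 and 1818.5 in BXH7, 1766.1 and 1501.8 in BXH8, 1553.1 and 1661.3 in BXH9, 1478.2 and 1603.6 in BXH10, 1555.1 and 1448.7 in BXH14, and 1541.1 and 1437.3 in BXH19. Both BXH4 arrays lay below every other array, and F1 and C3 held the highest values. Against the other RI strains Psmb5 was lower, with a log2 difference of -0.36 (SE 0.09, 95% confidence interval -0.55 to -0.18, limma's adjusted p = 0.019). The call rested on array 2 of BXH4: without it the difference was -0.23 (adjusted p = 0.33), and without array 1 it was -0.50 (adjusted p = 0.027). In such fits BXH4 has 1 array, which is assumed to vary like the arrays of the other strains, and the same holds wherever 1 array of a strain is left out.

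Psmb5 and Psmb6, the constitutive caspase-like site, were the only genes among the 12 core genes with a listed promoter that held a core of the antioxidant response element, TGACNNNGC on either strand. Their promoters, from 250 bases before to 50 after the RefSeq start in GRCm38.p6, are shown because both encode constitutive protease sites, carry the same motif and differ in the test result; capitals mark the motif. Psmb5 lies at chr14:54617946-54618245 on the minus strand, with the motif's first base 47 bases before the start (-47). Psmb6 lies at chr11:70525107-70525406 on the plus strand, with the first base at -9.
Psmb5: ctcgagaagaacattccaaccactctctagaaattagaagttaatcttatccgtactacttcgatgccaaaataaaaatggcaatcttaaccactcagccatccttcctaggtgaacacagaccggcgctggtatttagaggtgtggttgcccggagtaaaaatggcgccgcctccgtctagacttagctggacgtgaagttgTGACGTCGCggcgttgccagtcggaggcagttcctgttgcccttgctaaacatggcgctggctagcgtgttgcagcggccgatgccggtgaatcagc
Psmb6: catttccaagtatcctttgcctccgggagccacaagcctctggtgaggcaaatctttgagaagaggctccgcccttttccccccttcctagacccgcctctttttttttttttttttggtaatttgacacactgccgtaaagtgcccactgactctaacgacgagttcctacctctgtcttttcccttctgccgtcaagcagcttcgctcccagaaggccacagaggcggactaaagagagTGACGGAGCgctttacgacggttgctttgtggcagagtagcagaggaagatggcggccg

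Promoters were listed for 29 of the 36 genes (31 promoters). TGACNNNGC occurred in 16.1 percent of the 31 and in 12.4 percent of 32851 mouse promoters of the same length: in 2 of 12 core genes and, with Psmc6, Psmd9 and Psmd12, in 3 of 17 regulatory genes. CCAAT, the box bound by NF-Y, occurred in 35.5 percent against 37.4 percent of all promoters. CCGGAAG, the core bound by ETS factors, occurred in 35.5 percent against 8.86 percent of all promoters, in 1 of 12 core genes (Psma6) and 9 of 17 regulatory genes (Psmc1, Psmc2, Psmc6, Psmd2, Psmd4, Psmd6, Psmd11, Psmd12 and Psmd13). The core of the interferon-stimulated response element occurred in 3 genes (9.68 against 3.44 percent) and TTCNNNGAA, the gamma-activated core, in 1 (3.23 against 8.3 percent). All motifs were searched on both strands, and a match describes the letters only. Psmb5, the gene that passed, shares TGACNNNGC with Psmb6, which did not pass in BXH4. Both were below 0 there, Psmb5 by -0.36 (confidence interval -0.55 to -0.18) and Psmb6 by -0.23 (-0.49 to 0.025). These intervals overlapped, and the difference between Psmb5 and Psmb6 was not tested. The part of the motif was not tested either.

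Beyond Psmb5, most subunit genes in BXH4 lay on the same side. The difference was below 0 for 33 of 35, or 94.3 percent, against 48.5 percent of all genes, with a median of -0.13 against 0.009. Core genes had a median of -0.22 with 14 of 15 below 0, and regulatory genes -0.12 with 19 of 20 below 0. Without the chaperones of base assembly, the regulatory median was -0.08 with 16 of 17 below 0. At an unadjusted p below 0.05, 10 of 35 were lower and 0 higher, against 12.1 percent of all genes lower. The 10 were the alpha subunits Psma1 and Psma7, the beta subunits Psmb1, Psmb3, Psmb4 and Psmb5, the base ATPases Psmc1, Psmc2 and Psmc3, and the lid subunit Psmd13. These genes share the 2 BXH4 arrays, so their common sign is not independent evidence from gene to gene.

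The next differences after Psmb5 did not pass. Psmb1, a beta subunit with no protease site, had signals of 1259.4 and 1446.9 in BXH4 and 1292.4 to 2177.7 on the other 22 arrays, a difference of -0.37 (SE 0.12, limma's adjusted p = 0.061). Psmc2, a base ATPase, had 1785.3 and 1728.9 in BXH4 and 1610.5 to 2866.6 elsewhere, a difference of -0.39 (adjusted p = 0.089). Both genes overlapped with other strains on at least 1 array. Psma7 stood at 937.7 and 876.7 in BXH4 (-0.29, adjusted p = 0.083), Psmb3, a beta subunit with no protease site, at 1032 and 885.8 (-0.29, adjusted p = 0.088), Psma1 at 1071.6 and 866.1 (-0.32, adjusted p = 0.11) and Psmd13 at 470.1 and 450.6 (-0.31, adjusted p = 0.11). With 1 array left out, the difference of Psmb1 ran from -0.46 to -0.27 and that of Psmc2 from -0.43 to -0.36.

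**Figure D2:**
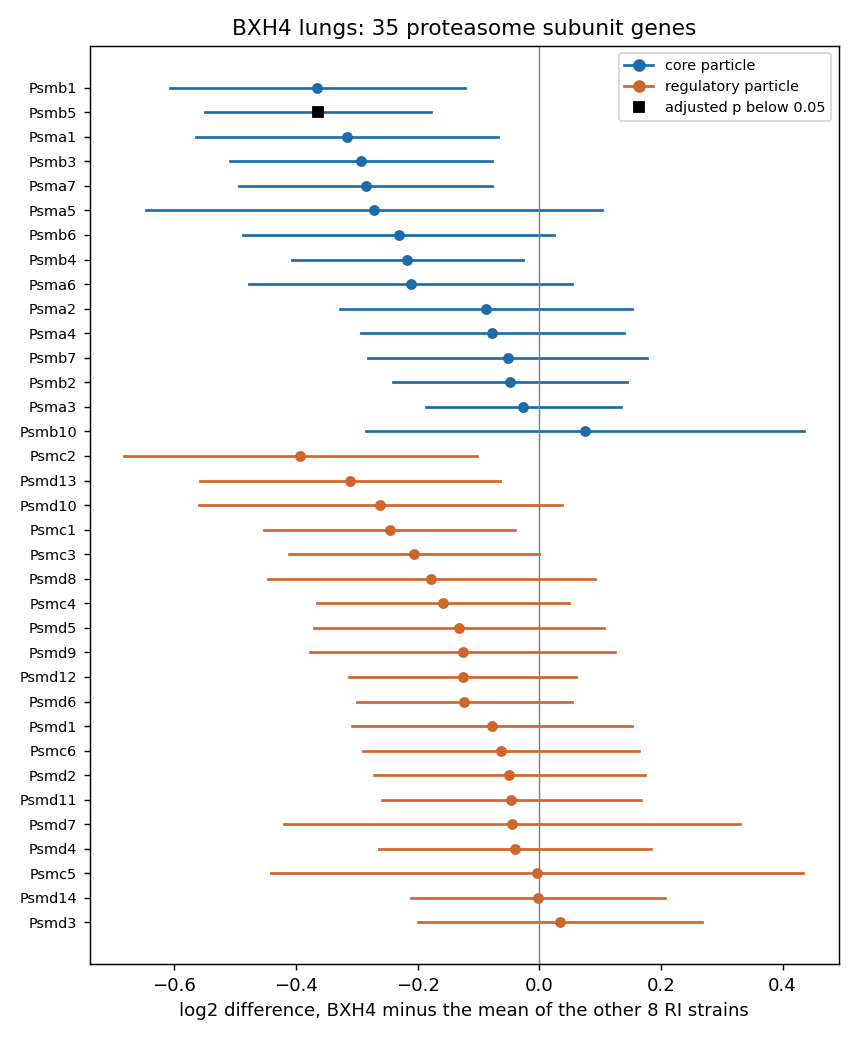
Points are log2 differences between BXH4 and the other 8 RI strains (their mean subtracted) for the 35 tested subunit genes, with 95% confidence intervals from limma; blue marks core genes, orange regulatory genes and the black square Psmb5, which passed. The points run from -0.39 for Psmc2 to 0.08 for Psmb10, and 33 of 35 lie below 0.

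Array 2 of BXH4 carried most of the shift. Relative to each gene's own mean over all arrays, 33 of 35 subunit genes lay below it on array 2 of BXH4 (median -0.25) and 20 of 35 on array 1 (median -0.04), against 43.1 and 53.6 percent of all genes. With array 2 as the only BXH4 array the median difference from the other RI strains was -0.27, with 33 of 35 below 0 and 13 lower at an unadjusted p below 0.05, against 8.74 percent of all genes. With array 1 as the only one it was -0.047, with 23 of 35 below 0 and 2 lower, against 9.65 percent of all genes. The median over all genes was 0.045 and -0.025 in these fits. The 3' to 5' ratios also differed between the BXH4 arrays. They were 0.8 on array 1 and 0.99 on array 2 for Gapdh, and 1.1 and 1.34 for Actb. Over all arrays the ratios ran from 0.8 to 1.13 and from 1.07 to 1.55. The part of this difference in the shift was not tested.

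Markers of other cells moved with BXH4. The summed signal of 5 T and NK cell markers (Cd3e, Cd3g, Cd8a, Gzma and Nkg7, all 5 measured, with 42.8 as the lowest signal on any array) was 5213.4 and 4993 in BXH4, 1310.9 and 1220.2 in BXH10 and 874.8 to 2571.8 on the other 20 arrays. Of the 3 that were tested, all 3 were higher in BXH4, Gzma by 2.40, Nkg7 by 1.69 and Cd3g by 0.675. Among 5 cardiac muscle markers Actc1 was lower in BXH4 (-0.50, limma's adjusted p = 0.048) and Myl7 gave -0.83 (adjusted p = 0.052), with sums of 6954.3 and 8983.7 against 7329.4 to 34147.1 on the other 20 arrays. The 3 measured adipose markers summed to 1525.5 and 1360.7 against 1147.6 to 6697.1, with Adipoq at -1.61 (adjusted p = 0.054). The sums on BXH4 arrays 1 and 2 were 6711.3 and 1129 for 8 skeletal muscle markers (1114.4 to 36121.1 on the other 20), 3669.9 and 179.3 for 4 squamous epithelium markers (165.4 to 10879.6) and 2802.9 and 1717.4 for 3 red cell markers (1259.4 to 4782.9). They were 92577.7 and 65690.5 for 7 lung epithelium markers (62046.6 to 91650.6) and 693.3 and 750.3 for 2 B cell markers (374 to 1048.5). The part of these cells in the subunit differences was not tested. In bulk lung, fewer cells of a type and less RNA per cell cannot be told apart.

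The constitutive and the inducible catalytic subunits were set side by side in BXH4. Psmb8, which replaces Psmb5, had signals of 1494.4 and 1270.7 in BXH4, 1504.5 and 1287 in BXH7, and 717.1 to 1160.7 on the other 20 arrays. It was higher in BXH4 by 0.47 (SE 0.12, limma's adjusted p = 0.025) where Psmb5 was lower. The call was lost without array 1 of BXH4 (0.35, adjusted p = 0.26) or array 2 (0.58, adjusted p = 0.088). For the caspase-like site, Psmb9 gave 0.36 (adjusted p = 0.10) and Psmb6 -0.23 (-0.37 without array 1 of BXH4 and -0.10 without array 2), and for the trypsin-like site Psmb10 gave 0.075 and Psmb7 -0.05. Psmb9 passed without array 1 of BXH7 (adjusted p = 0.042). The difference between the genes of a pair was not tested.

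Psmb10, the inducible trypsin-like subunit, had the widest strain distance among the subunit genes. The B6 arrays gave 899.6 and 1059.9, the C3 arrays 1107.2 and 1099.5, and the F1 arrays 872.7 and 979.1. In the RI strains they were 738.4 and 885.4 in BXH2, 1125.6 and 785.5 in BXH4, 669.6 and 838.3 in BXH6, 1204.3 and 1217.4 in BXH7, 1031.8 and 1013.6 in BXH8, 824.2 and 1327.2 in BXH9, 517.5 and 800.1 in BXH10, 729.2 and 983.5 in BXH14, and 854 and 1018.7 in BXH19. BXH7 was the strain with the highest mean and BXH10 with the lowest, but the arrays within BXH4, BXH9 and BXH10 lay far apart. The within-strain SD was 0.26, and the distance of 0.90 did not pass (limma's adjusted p = 0.20). Against the other RI strains BXH7 gave 0.48 (adjusted p = 0.25) and BXH10 -0.53 (adjusted p = 0.18), the latter moving to -0.22 without array 1 of BXH10 and to -0.83 without array 2.

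The other inducible subunits had their extremes in the same strains and did pass across the 12 strains, Psmb8 with a distance of 0.82 (adjusted p = 0.011) and Psmb9 with 0.97 (adjusted p = 0.025). By strain mean both were highest in BXH7 and lowest in BXH10. For Psmb8 other strains lay close to these extremes. Its mean signals were 1396 in BXH7 and 1383 in BXH4, and 781.6 in BXH10 and 792 in BXH14. In BXH10 Psmb8 gave -0.44 and did not pass (limma's adjusted p = 0.087). Psmb9 signals were 549.1 and 590.1 in BXH10, below all other arrays (651.8 to 1388.8), and it was lower there by -0.65 (SE 0.13, limma's adjusted p = 0.012). That call was lost without array 1 of BXH10 (-0.60, adjusted p = 0.19) or array 2 (-0.70, adjusted p = 0.098). The 12-strain call of Psmb9 was lost without either of these (adjusted p = 0.079 and 0.060), without array 1 of BXH19 (0.051) and without array 1 of BXH4 (0.051). Over 12 strain means, which share arrays and scaling, Pearson's r was 0.87 for Psmb8 and Psmb9, 0.71 for Psmb9 and Psmb10, and 0.51 for Psmb8 and Psmb10. It was -0.33 for Psmb5 and Psmb8, -0.20 for Psmb6 and Psmb9, and 0.25 for Psmb7 and Psmb10, while the constitutive Psmb5 and Psmb7 gave 0.68.

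**Figure D3:**
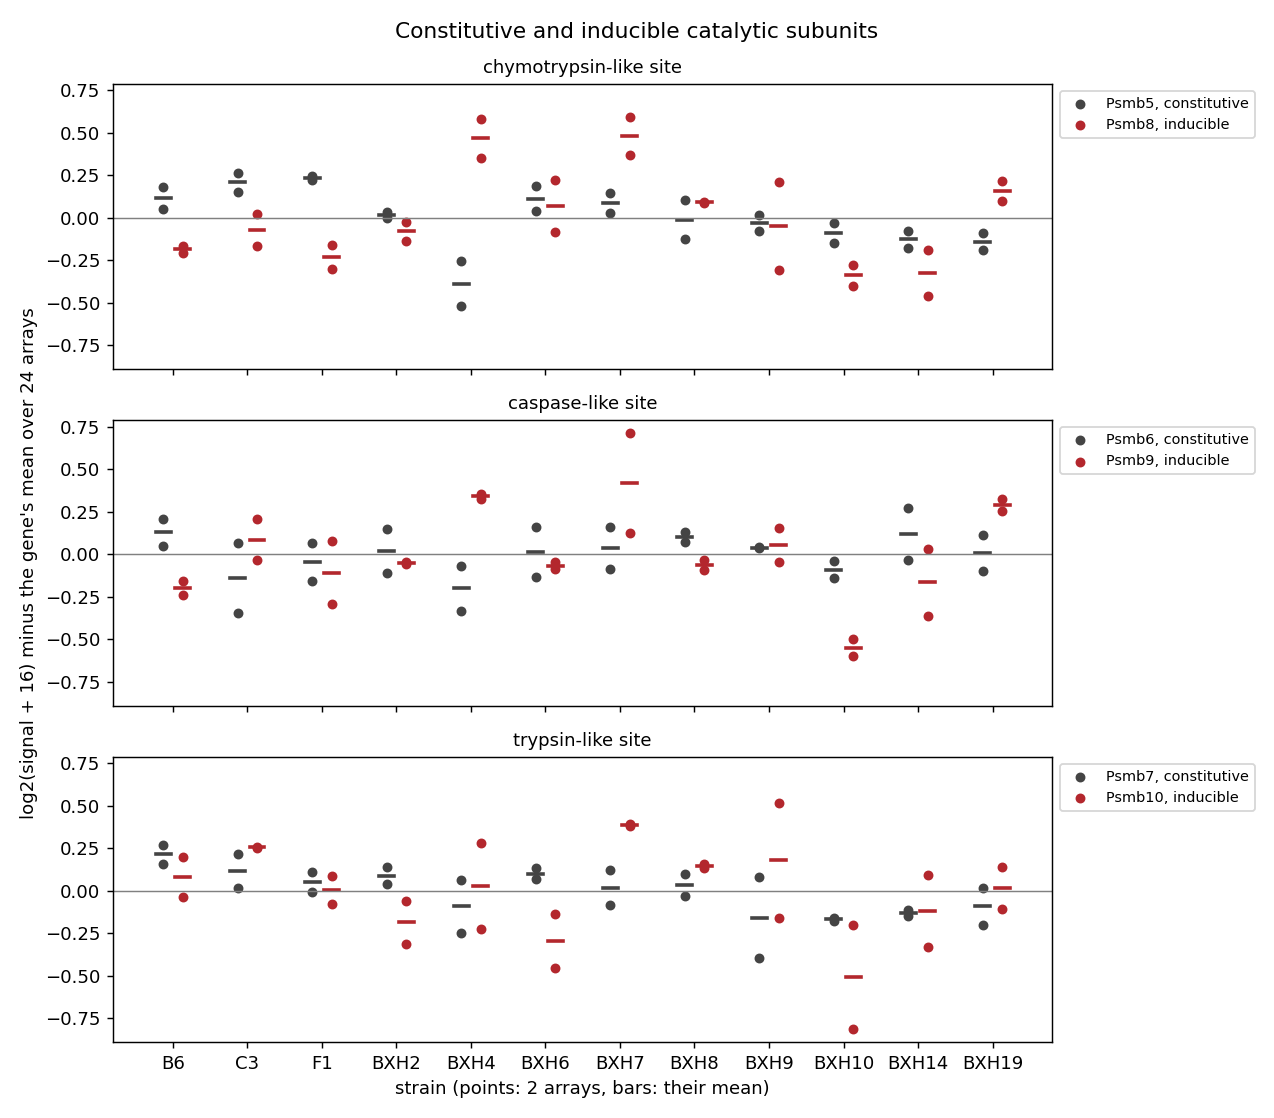
Points are single arrays and bars strain means of log2(signal + 16) minus the gene's mean over 24 arrays, for the constitutive (grey) and inducible (red) subunit of each of 3 protease sites in 12 strains. In BXH4 the Psmb5 points lie below 0 and the Psmb8 points above it, and in BXH10 all 3 inducible genes lie below 0.

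After BXH4, BXH10 had the lowest median over the subunit genes. The difference from the other RI strains was below 0 for 25 of 35, or 71.4 percent, against 47.7 percent of all genes, with a median of -0.104. For core genes it was 13 of 15 with a median of -0.12, and for regulatory genes 12 of 20 with -0.05. No subunit gene passed, where 1.47 percent of all genes did. At an unadjusted p below 0.05, 5 were lower (Psma1, Psmb3, Psmb10, Psmc2 and the lid subunit Psmd12), against 6.26 percent of all genes. Both arrays showed it, with 27 and 28 of 35 genes below their own mean, against 47.5 and 48.2 percent of all genes. Every marker sum of BXH10 lay within the range of the other 20 arrays. On BXH10 arrays 1 and 2, skeletal muscle markers summed to 10024.7 and 1472.8 (median of the other 20 arrays 12951.5). Adipose markers summed to 2191.5 and 1233.6 (median 2874.8) and squamous epithelium markers to 2826.5 and 370.5 (median 1580.4). The part of these cells was not tested.

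In the remaining RI strains the medians over the 35 genes ran from -0.02 in BXH19 to 0.065 in BXH8. BXH7 had 28 of 35 above 0 (median 0.06), with 8 of 8 beta genes among them. The share below 0 was 20 percent against 47.7 percent of all genes. Among the 8 beta genes 1, Psmb10, was higher at an unadjusted p below 0.05, against 449 of all 8280 genes. These genes share the 2 BXH7 arrays, so their common sign is not independent evidence from gene to gene. In BXH6, 5 genes had an unadjusted p below 0.05, all higher, against 6.51 percent of all genes higher. Psma1 in BXH9 (0.32, adjusted p = 0.18) and Psma7 in BXH14 (-0.27, adjusted p = 0.23) had the lowest adjusted p of their strains. At the brightest probe sets, the confidence interval of the difference lay within -1 and 1 for all 35 genes in all 9 strains. It lay within -0.5 and 0.5 for 27 genes in BXH4 and 31 to 33 in the others.

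The strain means of the subunit genes moved together to a small degree. Over 12 strain means, the median Pearson correlation was 0.21 over the 595 pairs of subunit genes, with 74.6 percent above 0, and 0.004 over all 34275060 pairs of tested genes, with 50.4 percent above 0. It was 0.26 over 105 core pairs, 0.18 over 190 regulatory pairs and 0.21 over 300 pairs of a core and a regulatory gene, so the value for pairs across the particles lay between those within them. All pairs share the same arrays and scaling, and the values are a description. They rested on few strains: without BXH4 the median was 0.099 and without BXH4 and BXH10 it was 0.006, with 51.4 percent of pairs above 0. From replicate 1 arrays of the 12 strains alone the median was 0.1, and from replicate 2 arrays alone 0.26.

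Some subunit genes have more than 1 probe set, and these did not always give the same picture. Of the 35 tested genes, 18 had 1 probe set, Psmb5 among them, and 17 had further ones, 29 in all, of which 17 were above the filter. Over the 12 strain means 14 of these 17 correlated above 0 with the brightest probe set of their gene, and 4 of them above 0.5. The BXH4 difference had the sign of the brightest probe set in 14 of 17. An exception was Psmb1, whose second probe set above the filter gave 0.20 against -0.37. Where the sign was the same, the size differed in both directions. The further probe set of Psmd13 gave -0.02 against -0.31, and that of Psmb4 -0.69 against -0.22.

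With every probe set above the filter tested, 52 belonged to subunit genes among 12499. Across the 12 strains 9.4 percent of all probe sets passed, and among the subunit genes 3 did: that of Psmb5 and further probe sets of Psma7 and Psmd6. The Psmd6 probe set reached the filter only through the strains in which it was bright, so its passing is no support for a difference. In C3 against B6, 1.67 percent of all probe sets passed and 1 of Psmd6. In BXH4, 4.51 percent of all probe sets were lower and 4 of the 52: those of Psmb5, Psmd6, Psma7 and the base ATPase Psmc4. For Psma7 the further probe set had signals of 818.8 and 509 in BXH4 and 927.3 to 1240.1 elsewhere (-0.77, SE 0.13, limma's adjusted p = 0.0015), against -0.29 for the brightest. Without array 2 of BXH4 it gave -0.43 (adjusted p = 0.12). For Psmc4 it had 267.8 and 203.9 in BXH4 and 276.3 to 673 elsewhere (-0.72, adjusted p = 0.036), against -0.16, and the call was lost without array 1 (adjusted p = 0.089) or array 2 (0.35) of BXH4. The 12-strain call of this Psma7 probe set (adjusted p = 0.047) was lost in 21 of the 24 fits with 1 array left out (up to 0.26, without array 2 of BXH4).

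Psmd6, a lid subunit, had probe sets that disagreed, and the values of the further one are given as a description without a test. The brightest probe set was flat, with signals of 981.5 to 1230.5 and a distance of 0.23 between strain means. The further probe set had signals of 413.9 and 489.4 in B6, 327 and 426.6 in F1, 601.6 and 470.3 in BXH6, 595.4 and 529.2 in BXH7, 499.5 and 342.7 in BXH8, and 488.9 and 345.3 in BXH10. It had 72.4 and 66.7 in C3, 67.4 and 61.1 in BXH2, 55.6 and 14.1 in BXH4, 83 and 70.8 in BXH9, 97.7 and 54 in BXH14, and 73.4 and 47.7 in BXH19. The strains thus stood at separate levels, B6, F1 and 4 RI strains at 327 to 601.6 and C3 and 5 RI strains at 14.1 to 97.7, with no array between.

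For this probe set C3 minus B6 was -2.45, and the strain means spanned 3.64. With 1 array of B6 or C3 left out, C3 minus B6 lay between -2.56 and -2.33. Arrays of other strains do not enter this difference. F1 lay 0.965 above the midparent. All arrays of the low strains were below the signal of 168.8 at the filter, so these log2 values depend on the offset of 16: C3 minus B6 was -2.68 with an offset of 1 and -1.945 with an offset of 64. Which transcript or sequence the probe set measures in each strain was not tested. The Psmd6 promoter, at chr14:14120896-14121195 on the minus strand of GRCm38.p6 (RefSeq), is shown because the probe sets of this gene disagree; capitals mark the ETS core CCGGAAG, with its first base at -45.
Psmd6: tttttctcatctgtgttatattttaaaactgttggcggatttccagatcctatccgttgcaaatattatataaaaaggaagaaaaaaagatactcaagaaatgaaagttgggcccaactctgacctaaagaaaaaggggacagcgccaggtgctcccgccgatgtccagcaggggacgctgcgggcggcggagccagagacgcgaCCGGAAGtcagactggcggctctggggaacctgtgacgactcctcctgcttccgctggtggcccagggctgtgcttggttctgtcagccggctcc

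**Figure D4:**
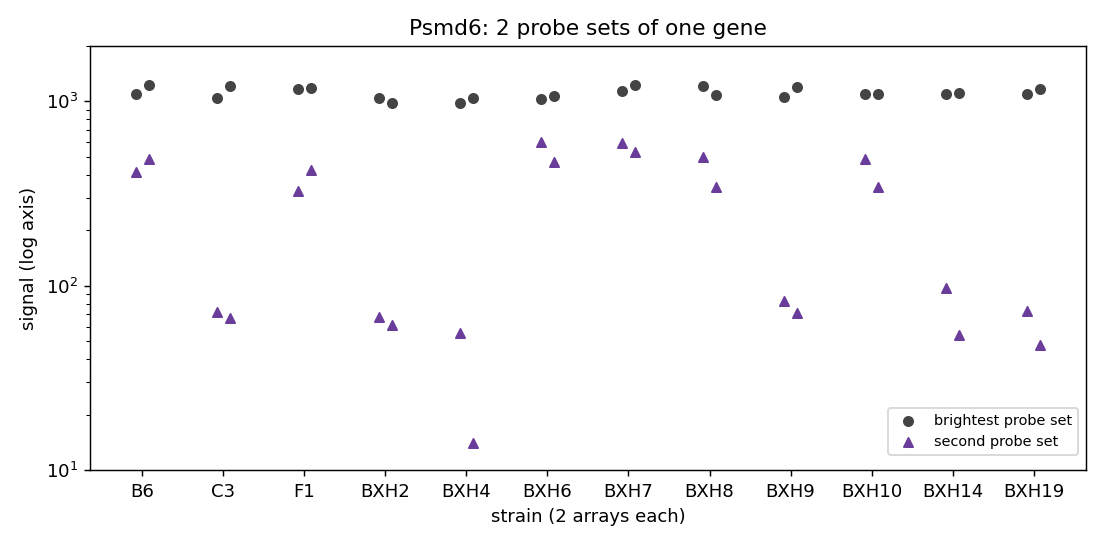
Signals of the brightest (grey circles) and the further (purple triangles) probe set of Psmd6 on each of 2 arrays per strain, on a log axis. The brightest stays between 981.5 and 1230.5, and the further one lies at 327 to 601.6 in B6, F1, BXH6, BXH7, BXH8 and BXH10 and at 14.1 to 97.7 in the other 6 strains.

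Other genes of the pathway were read from lists, of which 31 of 44 genes were tested. Across the 12 strains 5 of 31 passed, and the same number across the RI strains, against 10.5 and 9.32 percent of all genes. None of the 4 tested caps and inhibitors passed, among them the activator Psme1 (distance 0.31, adjusted p = 0.92), nor any of 5 core assembly chaperones, such as Pomp (0.21, adjusted p = 0.805), nor any of 7 partners of the regulatory particle. None of 4 regulators passed, among them Nfe2l1 (0.32, adjusted p = 0.49), which gave 0.22 in BXH4. The 5 that passed were Psmb8, Psmb9, Rad23b, which shuttles ubiquitinated proteins to the proteasome, Tap1, which pumps its peptides into the endoplasmic reticulum, and B2m, the light chain of class I molecules. The call of Rad23b (adjusted p = 0.034) held in 11 of the 24 fits with 1 array left out (adjusted p up to 0.10 in the rest, the highest without array 1 of BXH9) and in 7 of 10 other settings.

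Tap1 was higher in BXH4 by 0.92 (limma's adjusted p = 0.0013) and lower in BXH14 by -1.02 (adjusted p = 6.82e-04), and B2m was lower in BXH14 by -0.635 (adjusted p = 0.0078). Rad23b was higher in BXH4 by 0.53 (adjusted p = 0.016) and lower in BXH9 by -0.49 (adjusted p = 0.048). Ubqln2, another shuttle, was lower in BXH4 by -0.39 (adjusted p = 0.042). Tap1 kept its BXH4 call in all 24 fits with 1 array left out (adjusted p up to 0.041). The Rad23b call in BXH4 was lost without array 1 of BXH4 (0.34, adjusted p = 0.27) and the difference was 0.72 without array 2, and those of Ubqln2 in BXH4 and Rad23b in BXH9 held in 14 and in 8 of the 24 fits with 1 array left out (adjusted p up to 0.25 and 0.78 in the rest). The Rad23b call in BXH9 held in 3 of 10 other settings, and its difference was -0.33 without array 1 of BXH9. In BXH14 the call of Tap1 was lost without array 1 of BXH14 (adjusted p = 0.10) and that of B2m without array 1 (0.25) or array 2 (0.064) of BXH14. With the mean of its probe sets B2m in BXH14 gave -0.41 (adjusted p = 0.0895).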

How the data were processed

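Per the labels' protocols, Trizol-extracted RNA was reverse transcribed with an oligo(dT) primer and transcribed into biotin-labelled cRNA for hybridisation. The authors' deposited table holds 1 linear intensity (signal) for each of 22690 probe sets and 24 arrays; which software made and scaled it is not given in the sources used here. Array means, with 2 percent trimmed at both ends, were 500.11 to 500.13, so no further normalization was applied.

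Probe sets were named from the platform annotation, in which 20380 had 1 symbol, 691 several and 1555 none, and 64 were controls. The members and all gene lists were chosen with earlier results of these data known. The text names every member that passed in any comparison, the 8 with the widest strain distance, the 3 brightest and 3 dimmest, the catalytic subunits with Psmd4 and Psmd14, those nearest the filter, pathway genes that passed with Psmb8, Psmb9, Psme1 and Nfe2l1, and members whose probe sets differ for a called difference. Psmb4, Psmc1, Psmc3, Psmc6, Psmd2, Psmd12, Psma6 and Pomp were named after their values were seen.

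Log2(signal + 16) of the brightest probe set was modelled in limma (version 3.58.1, under R version 4.3.3; lmFit, eBayes with a mean-variance trend, 12 strains as groups, 12 residual degrees of freedom) for 8280 genes. A gene passed with a Benjamini-Hochberg adjusted p below 0.05 within its comparison. The number of arrays limits the precision. The fit was tested on simulated data. Alternatives were other normalizations, offsets, filters and probe set rules, no trend, the replicate number as a block, and leaving out each array; a fit without both BXH4 arrays was added after seeing the data. Promoters are those of RefSeq in GRCm38.p6, searched with Python 3.11.15; figures were drawn with matplotlib 3.10.9.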

Additional observations from a re-analysis of the deposited data

How the results depend on the processing

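The number of subunit genes called changed most with the choice of probe set. Across the 12 strains 1 was called, which became 0 with median centring, with no mean-variance trend and without both BXH4 arrays (a fit chosen after seeing the data), 3 with the mean of a gene's probe sets and 3 with every probe set. Over the 9 RI strains 0 became 2 with the mean of probe sets and 2 with every probe set, and for C3 minus B6 0 became 1 with either. With every probe set, 9.4, 8.86 and 1.67 percent of all probe sets passed in these 3 comparisons. For the other settings, and for the counts by strain that follow, the share of all genes was not counted. Whether the changes are particular to the subunit genes was not tested. Counted as calls of a gene in a strain, for each RI strain against the other 8, 1 became 11 with the mean of probe sets, 12 with every probe set, 2 with the replicate block and 0 without both BXH4 arrays. The 11 calls came from 5 genes, 7 of them from Psmd6, and the 12 from 4 genes, 9 of them from Psmd6, whose further probe set reached the filter only through the strains in which it was bright. With 1 array left out these counts were 0 to 1 across the 12 strains, 0 to 2 for each RI strain against the others, and 0 to 0 for C3 minus B6, for F1 and over the 9 RI strains. The median pairwise correlation of 0.21 became 0.33 with median centring and lay between 0.11 and 0.35 with 1 array left out. The BXH4 difference of Psmb1 reversed to 0.09 with the mean of probe sets (limma's adjusted p = 0.77), where a further probe set gave 0.20. The BXH4 difference of Psmb5 lay between -0.39 and -0.35 under the other settings that gave a value and passed in each. Of these, only the normalizations and offsets could move the difference. Psmb5 has 1 probe set, and the rest left its strain differences unchanged. Without array 2 of BXH4 the difference was -0.23. Apart from the probe set rules, the causes were not tested.

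The replicate numbers showed no common pairing over all strains. Over 66 pairs of strains the correlation of same-numbered deviations had a median of -0.004 (-0.299 to 0.344), and 22 were above 0.1. A median near 0 cannot tell whether arrays of some strains were paired, or were paired with their numbers swapped. With the replicate block Psmc2 was also called in BXH4 (adjusted p = 0.043), which gave the 2 calls. Signals near the filter, such as those of Psmd10, limit what can be read there.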
